A study of Sus scrofa with 18 samples.

Results

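Genes that store, transport, oxidise and respond to retinoids were examined in the liver of growing pigs fed a mealworm meal in place of soybean extraction meal. The members were taken by gene symbol from the platform annotation. Of 7 genes looked for, 6 had a probe set: RDH16, RDH11, LRAT, CYP26A1, RBP4 and RARB. Each had exactly 1, so that 6 of the 25388 probe sets on the array were used, out of 12307 named genes. RARRES2, which encodes the adipokine chemerin and responds to retinoids in human cells, was not analysed here because the annotation lists no probe set under its symbol.

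The data came from the liver RNA of 18 male crossbred pigs [Piétrain × (German Landrace × German Edelschwein)], hybridised to 1 Affymetrix Porcine Gene 1.0 ST array each. Group CON (n = 6) received 0% insect meal with soybean extraction meal as its main protein source, group IM5 (n = 6) received 5% insect meal from Tenebrio molitor larvae, which took the place of 50% of the soybean meal, and group IM10 (n = 6) received 10%, which took the place of 100%. The trial began at an age of 5 weeks, and the pigs ate their diet ad libitum for 4 weeks and were killed on day 29 in the fed state. The diets also differed in added cellulose, in rapeseed and safflower oil and in single amino acids, whereas the mineral and vitamin premix, which supplied vitamin A, was included at the same rate in each. A difference between groups therefore belongs to the whole diet. Several pigs shared a pen. Since the labels name no pens, p-values treat pigs as independent.

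Vitamin A reaches the liver as retinyl esters. Hepatocytes hydrolyse them and either release retinol into plasma on its carrier RBP4 or pass it to hepatic stellate cells, where LRAT esterifies it again for storage. Retinol is oxidised reversibly to retinal by dehydrogenases of the RDH, DHRS and ADH families, and retinal irreversibly to retinoic acid, the ligand of the nuclear receptors RARA, RARB and RARG. Retinoic acid induces the CYP26 enzymes that break it down, and CYP26A1 is a widely used read-out of retinoic acid in liver.

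Values are log2 RMA values, that is, expression values after background correction, normalisation between arrays and summary of the probes of each probe set, on a log2 scale. Array medians lay between 5.05 and 5.15, and arrays correlated with each other at 0.986 to 0.992, so no array stood apart. Hepatocyte markers were high on every array, with ALB between 12.81 and 12.95 and AHSG between 12.78 and 12.90. No level of one probe set was compared with that of another. The criteria, which follow the methods of the study, require a change of over 1.2-fold, up or down, together with an unadjusted limma p under 0.05. Of all probe sets, 0 had an adjusted p under 0.05 between any pair of diets by limma, and 0 by the equal-variance test of the methods, while 1541, 1452 and 1372 had an unadjusted p under 0.05 by limma for IM10 against CON, IM5 against CON and IM10 against IM5. None of the calls below therefore passed Benjamini-Hochberg adjustment over all probe sets.

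Between group IM10 and group CON, 1 of the 6 members met the criteria, against 2.07% of all probe sets in either direction and 0.800% of all probe sets for lower values. This was CYP26A1 (probe set 15227675), the hydroxylase that inactivates retinoic acid. The study had already listed it as lower in this comparison on the arrays. It also reported CYP26A1 as significantly lower by qPCR, run on all pigs of both groups, those with an array included. The members were chosen with earlier results of these data known. The shares of members called here and below are therefore not independent of these data. CYP26A1 values were 5.61, 5.52, 5.86, 5.71, 5.47 and 5.69 in group CON, 5.24, 5.92, 5.65, 5.51, 5.42 and 5.81 in the IM5 pigs, and 4.93, 5.46, 5.17, 5.63, 4.96 and 5.33 in group IM10. Of the 6 IM10 pigs, 5 lay below every CON pig, and only IM10 replicate 4 lay within the range of the controls. IM10 replicates 1 and 5, at 4.93 and 4.96, lay below the array medians of 5.05 to 5.15. Whether they lie above background was not tested. CYP26A1 averaged 5.25 ± 0.28 in group IM10 and 5.64 ± 0.14 in group CON (SD, n = 6 each). That is 1.32-fold lower, a log2 difference of -0.40 with a 95% interval from -0.64 to -0.15. The limma p was 0.00361 and its adjusted p 0.639. A two-sided exact permutation test gave p = 0.0130, in a design whose smallest possible p is 0.00216. The call held without each of the 12 arrays in turn, with differences between -0.47 and -0.33. In whole tissue, fewer cells of a type and less RNA per cell cannot be told apart. The mean over 7 hepatocyte markers ranged from 11.47 to 11.57 in group IM10 and from 11.49 to 11.58 in group CON, and its part in the CYP26A1 difference was not tested. Of these markers the transcription factor HNF4A averaged 8.93 ± 0.12 in group IM10, against 9.19 ± 0.17 in group IM5, a difference of -0.26 (exact permutation p = 0.0152) that missed a fold change of 1.2, and it differed by -0.17 between IM10 and CON. Its part was not tested either.

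At the lower amount of insect meal CYP26A1 stayed near the controls. It averaged 5.59 ± 0.25 in the IM5 pigs and 5.64 ± 0.14 in group CON (SD, n = 6 each), a difference of -0.05 with a 95% interval from -0.28 to 0.18. Between group IM5 and group CON, 0 of the 6 members met the criteria, against 1.92% of all probe sets. Of the 6 members, 0 had an unadjusted limma p under 0.05, against 5.72% of all probe sets, and 0 met the criteria by the equal-variance test. Compared directly, IM10 was 1.27-fold lower than IM5 in CYP26A1, a log2 difference of -0.35 with a 95% interval from -0.63 to -0.06. As 1 of 6 members it met the criteria, against 1.59% of all probe sets in either direction and 0.764% for lower values. The limma p was 0.0222 (adjusted p = 0.881) and the two-sided exact permutation p was 0.0541. The groups overlapped, with 3 IM10 pigs below all IM5 pigs and 3 IM5 pigs above all IM10 pigs. The call between IM10 and IM5 rested on single pigs. Without IM5 replicate 2, IM5 replicate 6, IM10 replicate 1 or IM10 replicate 5, the limma p was 0.0575, 0.0519, 0.0566 and 0.0558, in that order, with differences between -0.30 and -0.28. IM5 and IM10 share their controls, so their differences from group CON are not independent of each other.

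**Figure D1:**
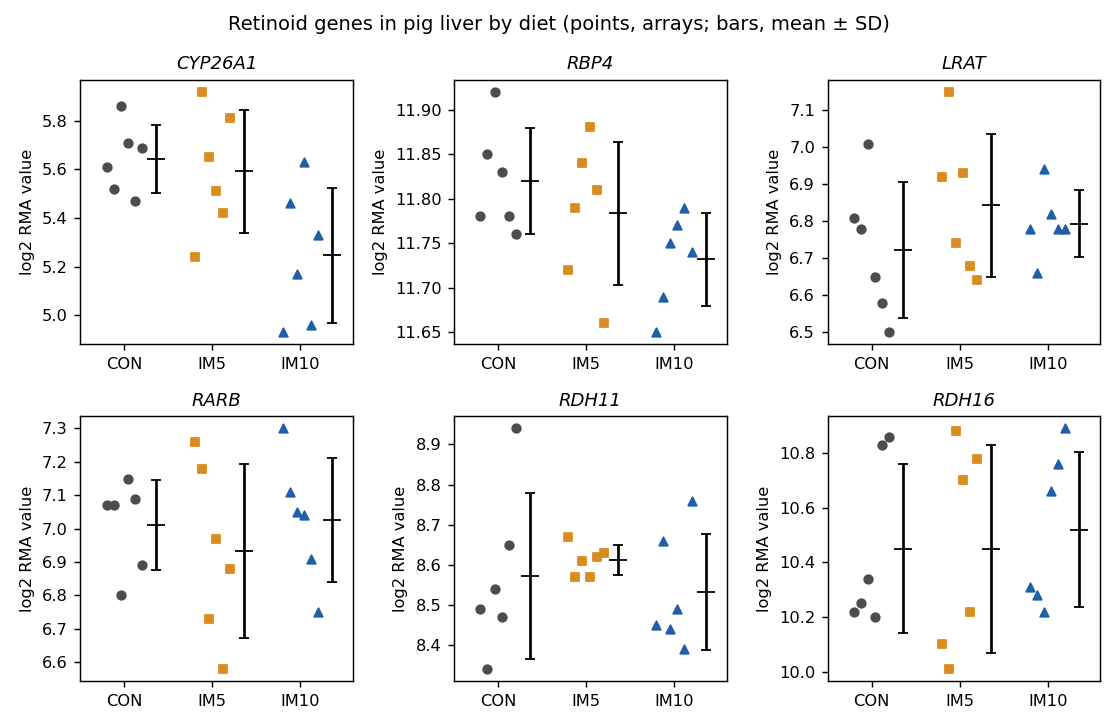
Log2 RMA values of the 6 members by diet, 1 point per array (CON circles, IM5 squares, IM10 triangles), with the group mean ± SD as a bar beside the points; each panel has its own scale. In CYP26A1, 5 of 6 IM10 pigs lie below every CON pig, and in RDH16 no pig lies between 10.34 and 10.66.

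RBP4 (probe set 15233495), the plasma carrier of retinol that hepatocytes secrete, had a pooled SD within diets of 0.065, and 0.737% of all probe sets had a smaller one. Its probe set is among the bright ones, and bright hepatocyte genes such as ALB and AHSG also varied little, with SDs within diets of 0.02 to 0.05 for ALB and 0.02 to 0.03 for AHSG. RBP4 read 11.78, 11.85, 11.92, 11.83, 11.78 and 11.76 in group CON, 11.72, 11.79, 11.84, 11.88, 11.81 and 11.66 in the IM5 pigs, and 11.65, 11.69, 11.75, 11.77, 11.79 and 11.74 in group IM10. Of the IM10 pigs, 4 lay below all controls, and 3 controls lay above all IM10 pigs. RBP4 averaged 11.73 ± 0.05 in group IM10 and 11.82 ± 0.06 in group CON (SD, n = 6 each). The difference of -0.09, or -5.94%, had an exact permutation p of 0.0216 (two-sided). It did not meet the criteria, since the fold change was 1.06 and the limma p 0.129 (adjusted p = 0.868). The 95% interval of the limma difference ran from -0.21 to 0.03. Between IM5 and CON the difference was -0.04 with an interval from -0.17 to 0.10.

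LRAT (probe set 15323474) encodes the enzyme that esterifies retinol in stellate cells. In group CON its values were 6.81, 6.78, 7.01, 6.65, 6.58 and 6.50. They were 6.92, 7.15, 6.74, 6.93, 6.68 and 6.64 in the IM5 pigs, and 6.78, 6.66, 6.94, 6.82, 6.78 and 6.78 in group IM10. The diets overlapped, and the IM10 pigs lay within a narrower band (SD 0.09) than the CON pigs (SD 0.18). LRAT differed by 0.07 between IM10 and CON (95% interval -0.11 to 0.25, exact permutation p = 0.416) and by 0.12 between IM5 and CON (95% interval -0.10 to 0.34, exact permutation p = 0.292). The mean over the other 15 measured stellate cell markers ranged from 6.59 to 6.78 in group CON, from 6.65 to 6.99 in group IM5 and from 6.52 to 6.95 in group IM10. Of all 16 measured markers, LRAT included, 14 were higher in IM5 than in CON by a median log2 difference of 0.11, 0 met the criteria, and the median over all probe sets was 0.00. Between IM10 and CON 9 of 16 were higher and 0 met the criteria. The part of stellate cell content in the LRAT values was not tested.

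RARB (probe set 15214671), the retinoic acid receptor that is itself induced by retinoic acid, met the criteria in no comparison. It was at 7.07, 7.07, 6.80, 7.15, 7.09 and 6.89 in group CON and at 7.26, 7.18, 6.73, 6.97, 6.58 and 6.88 in group IM5. In group IM10 it was at 7.30, 7.11, 7.05, 7.04, 6.91 and 6.75. The ranges of the 3 diets overlapped almost fully. The difference was 0.02 between IM10 and CON, with a 95% interval from -0.18 to 0.21 (exact permutation p = 0.905), and -0.08 between IM5 and CON, with an interval from -0.31 to 0.16 (exact permutation p = 0.535).

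RDH11 (probe set 15318252), an endoplasmic reticulum enzyme that mainly reduces retinal to retinol, read 8.49, 8.34, 8.54, 8.47, 8.65 and 8.94 in group CON. It read 8.67, 8.57, 8.61, 8.57, 8.62 and 8.63 in the IM5 pigs and 8.45, 8.66, 8.44, 8.49, 8.39 and 8.76 in group IM10. All IM5 pigs fell between 8.57 and 8.67, inside the wider ranges of the other diets, with an SD of 0.04 in the IM5 pigs and 0.21 in group CON. The difference was -0.04 between IM10 and CON, with a 95% interval from -0.25 to 0.17, and 0.04 between IM5 and CON, with an interval from -0.15 to 0.23. Between IM10 and IM5 it was -0.08, and 4 IM10 pigs lay below all IM5 pigs while 1 lay above them (exact permutation p = 0.247). The spread itself was not compared by a test.

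**Figure D2:**
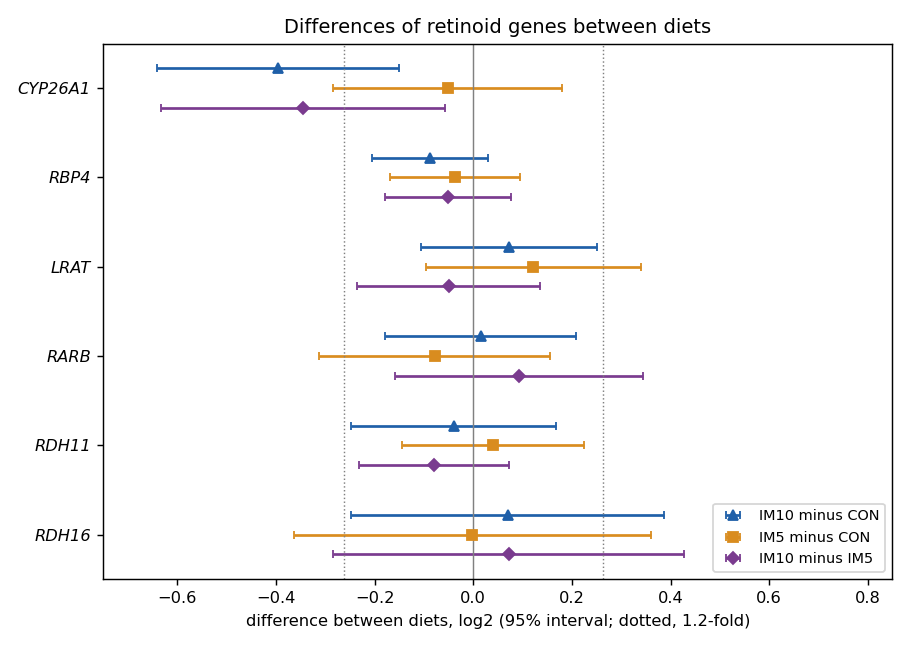
Differences between diets for the 6 members on the log2 scale, with 95% limma intervals; dotted lines mark a fold change of 1.2 in either direction. The intervals of CYP26A1 for IM10 minus CON (-0.64 to -0.15) and IM10 minus IM5 (-0.63 to -0.06) lie below 0, and all others include 0.

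RDH16 (probe set 15288419), a liver enzyme that oxidises retinol to retinal and also acts on steroids, did not differ by diet beyond its spread, but its values took separate levels. They were 10.22, 10.25, 10.34, 10.20, 10.83 and 10.86 in group CON, 10.10, 10.01, 10.88, 10.70, 10.22 and 10.78 in the IM5 pigs, and 10.31, 10.28, 10.22, 10.66, 10.76 and 10.89 in group IM10. No pig lay between 10.34 and 10.66. The upper level held 2 CON, 3 IM5 and 3 IM10 pigs, and the lower level 4 CON, 3 IM5 and 3 IM10 pigs. This gap of 0.32 spans 36.4% of the range of the gene, and 0.150% of all probe sets had a gap as wide relative to their range with at least 4 arrays on each side. Levels were defined after the values were seen, and no test was run between them. RDH16 averaged 10.52 ± 0.28 in group IM10 and 10.45 ± 0.31 in group CON (SD, n = 6 each). The difference of 0.07 had an exact permutation p of 0.762, and its 95% interval allows a fold change between 0.842 and 1.31. Between IM5 and CON the difference was 0.00 (exact permutation p = 1.00), with a fold change between 0.777 and 1.28 inside the interval. Since each group mean mixes both levels, it describes few single pigs.

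A further probe set, 15288429, bears on the name RDH16. The annotation lists it with 2 loci, LOC100512656 and LOC100626199, and these follow RDH16 directly in the gene order of the Sscrofa11.1 gene table. Since it lists several genes, it was left unnamed and counted as no member. The study's text uses the name RDH16 for LOC100512656, whereas the annotation gives that symbol to the probe set described above. Its values were 9.40, 5.56, 5.50, 5.54, 9.10 and 9.47 in group CON, 9.32, 5.58, 9.94, 10.08, 9.34 and 10.16 in the IM5 pigs, and 9.99, 9.96, 9.23, 9.13, 10.09 and 9.10 in group IM10. The low level held 3 CON, 1 IM5 and 0 IM10 pigs, and no pig lay between 5.58 and 9.10. It was 4.45-fold higher in group IM10 (9.58 ± 0.47) than in group CON (7.43 ± 2.08; SD, n = 6 each) and met the criteria. The limma p was 0.00880 (adjusted p = 0.699) and the two-sided exact permutation p was 0.0390. The interval of this fold change ran from 1.55 to 12.8. The CON and IM5 means mix both levels, and no CON pig lay near the CON mean of 7.43. The CON pigs on the high level, at 9.10 to 9.47, lay within the IM10 range of 9.10 to 10.09. Still, 3 IM10 pigs, at 9.96 to 10.09, lay above every CON pig, as did 3 IM5 pigs. Between IM5 and CON the fold change was 3.12, with an interval from 0.828 to 11.8 (exact permutation p = 0.104). That value, a log2 difference of 1.64, rested in part on IM5 replicate 2, the only IM5 pig on the low level, and without it the log2 difference was 2.34 and met the criteria.

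The 4 pigs on the low level of this probe set had RDH16 values of 10.25, 10.34, 10.20 and 10.01, all on the lower level of RDH16. Of the 14 pigs on its high level, 8 were on the upper and 6 on the lower level of RDH16. No pig combined the upper level of RDH16 with the low level of the neighbouring probe set. The low level of probe set 15288429 held 3 CON pigs and 0 IM10 pigs. Their part in the difference in mean between IM10 and CON was not tested. This difference had no counterpart in the RDH16 probe set, where the group means differed by a log2 value of 0.07.

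**Figure D3:**
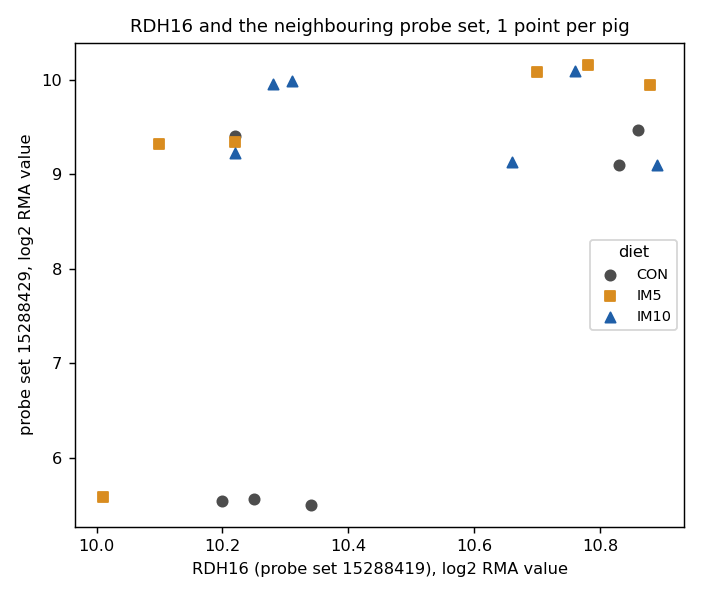
Each point is 1 pig, with the log2 RMA value of RDH16 (x axis) against that of the neighbouring probe set 15288429 (y axis), by diet. Pigs fall on separate levels on both axes, and the 4 pigs near 5.5 on the y axis (3 CON, 1 IM5) all lie at or below 10.34 on the x axis.

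Across the 3 amounts of insect meal, 1 of the 6 members had a slope with an unadjusted p under 0.05, against 5.32% of all probe sets in either direction and 2.31% for falling values. CYP26A1 changed by -0.40 per 10% insect meal, with an SE of 0.13. The limma p of this slope was 0.00487 and its adjusted p 0.800. With equal groups this slope equals the difference between IM10 and CON, so it adds no separate evidence. The slopes of the other members lay between -0.09 (RBP4) and 0.07 (LRAT), with limma p-values between 0.116 and 0.892.

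The other genes of retinoid handling were read from lists of transport, ester turnover, oxidation, retinoic acid turnover, receptors, retinoic acid targets and chemerin receptors. Of 84 genes in these lists 51 had a probe set, and 45 of the 51 were no members. Between IM10 and CON 0 of these 45 met the criteria, against 2.07% of all probe sets, and the median difference over the 51 genes was 0.00, as it was over all probe sets. CYP26A1 was thus the only gene among the 51 that met the criteria in that comparison. Between IM5 and CON 4 of the 45, or 8.89%, met the criteria against 1.92% of all probe sets, and between IM10 and IM5 2 of the 45, or 4.44%, against 1.59%. These counts are small and moved with single pigs. For IM5 against CON leaving out 1 pig gave 2 genes (without IM5 replicate 5) to 6 genes (without CON replicate 1), and leaving out dim probe sets gave 2. For IM10 against IM5 leaving out 1 pig gave 0 genes (without IM5 replicate 5 or IM10 replicate 4) to 2 genes, and leaving out dim probe sets gave 1.

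In the comparison of IM5 with CON, PNPLA2, PNLIP, DHRS3 and CDX1 were the 4 genes. PNPLA2, the adipose triglyceride lipase, which also hydrolyses retinyl esters in mouse stellate cells, was 1.33-fold higher in group IM5 (7.57 ± 0.26) than in group CON (7.15 ± 0.25; SD, n = 6 each; exact permutation p = 0.0130). It ranged from 7.28 to 7.89 in group IM5 and from 6.78 to 7.50 in group CON, and 4 IM5 pigs lay above all controls. DHRS3, a retinal reductase that retinoic acid induces, was 1.22-fold higher in group IM5 (9.39 ± 0.28) than in group CON (9.10 ± 0.16; SD, n = 6 each; exact permutation p = 0.0584). Here too 4 IM5 pigs lay above all controls, while another IM5 pig, at 8.88, was near the lowest control at 8.86. The DHRS3 call was lost by the methods' equal-variance test and without CON replicate 1 or IM5 replicate 3, 5 or 6. CDX1, a homeobox transcription factor and a retinoic acid target in mouse embryos, was 1.25-fold higher in IM5 (exact permutation p = 0.0238), and the pancreatic lipase gene PNLIP, whose product also cleaves retinyl esters in the gut, differed by -0.27 on the log2 scale (exact permutation p = 0.0303), just past a fold change of 1.2. Both were dim, with CDX1 between 3.90 and 4.72 and PNLIP between 1.82 and 2.52 on all arrays. Detection calls were not analysed here, so such values have no background limit. The PNLIP call was lost without CON replicate 2, 4 or 6 or without IM5 replicate 1, 2 or 5, in each case because the fold change fell under 1.2.

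Between IM10 and IM5 the retinoic acid targets DHRS3 and CDX1 were lower in IM10 next to CYP26A1, by log2 differences of -0.27 and -0.26. DHRS3 averaged 9.12 ± 0.13 in group IM10 and 9.39 ± 0.28 in group IM5 (SD, n = 6 each; exact permutation p = 0.0628). CDX1 averaged 4.26 ± 0.18 in group IM10 and 4.52 ± 0.17 in group IM5 (SD, n = 6 each; exact permutation p = 0.0325). Of the 15 measured retinoic acid targets, members included, 11 were lower and 4 higher in IM10 than in IM5, with a median difference of -0.05, against 0.00 over all probe sets. The other comparisons did not lean that way: 9 were higher and 6 lower in IM10 than in CON, and 7 higher and 8 lower in IM5 than in CON, with medians of 0.02 and -0.03. The stellate cell markers leaned the same way between IM10 and IM5, so the lean was not particular to these targets. Of 16 markers measured, 13 were lower, with a median difference of -0.08, and 0 met the criteria. LRAT is on both lists. Between IM10 and IM5 3 of the 15 targets met the criteria, CYP26A1 among them and all lower, against 1.59% of all probe sets in either direction and 0.764% for lower values. Unlike CYP26A1, neither DHRS3 nor CDX1 met the criteria in IM10 against CON. In IM10 against CON, DHRS3 differed by 0.02 (95% interval -0.16 to 0.20) and CDX1 by 0.06 (95% interval -0.17 to 0.29). The DHRS3 call between IM10 and IM5 was lost by the methods' equal-variance test and without IM10 replicate 2, 4 or 6 or IM5 replicate 2, 3, 5 or 6. That of CDX1 was lost without IM10 replicate 3, 4 or 5 or IM5 replicate 1, 4 or 5, where its fold change fell under 1.2.

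**Figure D4:**
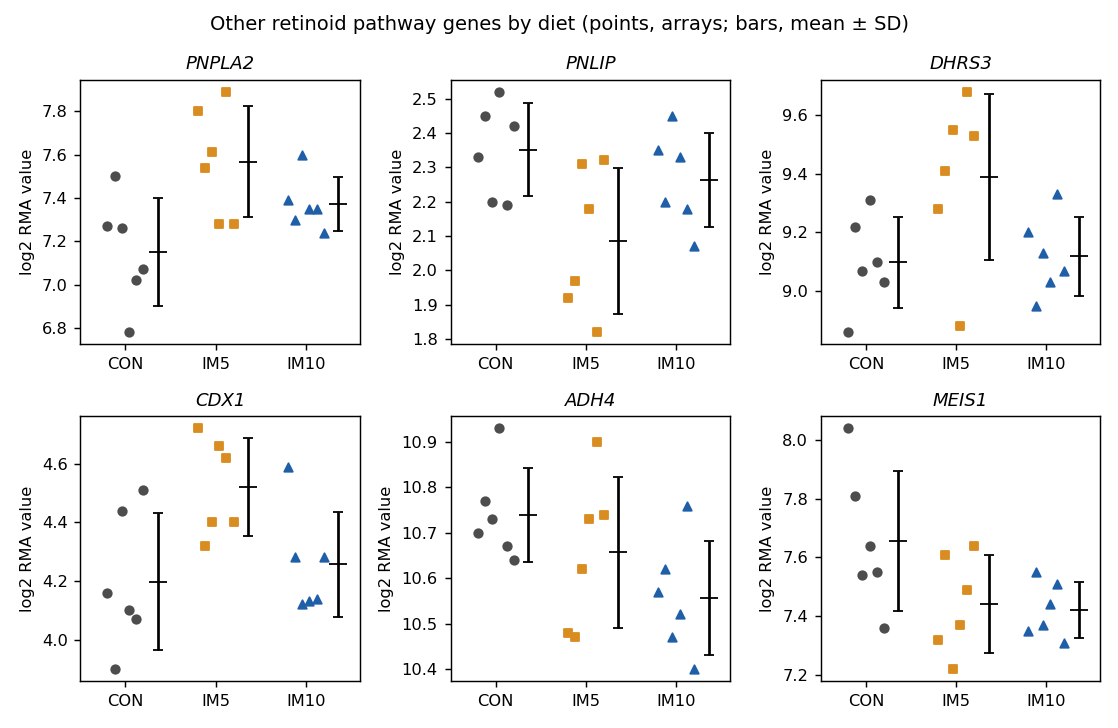
Log2 RMA values of 6 other retinoid genes by diet, 1 point per array, with the group mean ± SD beside the points; each panel has its own scale. PNPLA2, DHRS3 and CDX1 have their highest mean in group IM5, PNLIP its lowest, and ADH4 and MEIS1 their lowest in group IM10.

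Over the 3 amounts of insect meal ADH4 and MEIS1 were the other genes with a slope at an unadjusted p under 0.05, 2 of 45 or 4.44%, against 5.32% of all probe sets. ADH4, an alcohol dehydrogenase of liver that oxidises retinol, averaged 10.56 ± 0.13 in group IM10 and 10.74 ± 0.10 in group CON (SD, n = 6 each). The difference of -0.18 had an exact permutation p of 0.0216, but at 1.14-fold it did not reach the fold change of the criteria. Of the IM10 pigs, 5 lay below all controls. MEIS1, a homeobox gene induced by retinoic acid in development, averaged 7.42 ± 0.09 in group IM10 and 7.66 ± 0.24 in group CON (SD, n = 6 each), a difference of -0.24 (exact permutation p = 0.0390). The slope call was lost without CON replicate 4 or IM10 replicate 3 or 6 for ADH4, and without CON replicate 1, CON replicate 2 or IM10 replicate 6 for MEIS1.

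In the lists of transport, receptors and coregulators, chemerin receptors, stellate cell markers and hepatocyte markers 0 genes met the criteria in any of the 3 comparisons, and BCO2, the other measured gene of retinoic acid turnover next to CYP26A1, did not either. Among 7 measured genes of retinoid transport, the cellular retinoic acid carrier CRABP2 had, after RBP4, the smallest exact permutation p for IM10 against CON (0.0303) at a difference of -0.10, with values of 2.59 ± 0.06 in group IM10 and 2.68 ± 0.06 in group CON (SD, n = 6 each). CRABP2, at 2.42 to 2.77 on all arrays, was as dim as PNLIP and was not shown to lie above background, and the same holds for LPL at 2.07 to 2.91. The fatty acid and retinoic acid carrier FABP5 differed by 0.28 (95% interval -0.05 to 0.61). Of 9 measured receptors and coregulators, 6 were lower in IM10 than in CON, with differences between -0.15 (RXRB) and 0.07. The carotenoid cleavage enzyme BCO2 differed by -0.01 between IM10 and CON (95% interval -0.20 to 0.18). Of the chemerin receptors, CMKLR1 differed by -0.13 and GPR1 by 0.37 between IM10 and CON, with limma p-values of 0.190 and 0.0603. RDH10, which makes retinal in many tissues, differed by -0.07 (95% interval -0.21 to 0.07), and the lipoprotein lipase LPL by 0.15 (95% interval -0.11 to 0.40).

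No pair of members passed the test for varying together between pigs. Of 15 pairs computed over 18 pigs, 0 had a permutation p under 0.05 after Benjamini-Hochberg adjustment over the 15 (smallest adjusted p 0.321 for Pearson's r and 0.155 for Spearman's rho), and with diet means removed 0 passed as well. Pairs with RDH16 are given no pooled r, because that gene takes separate levels. The smallest adjusted p-values came from such pairs, RDH16 with LRAT or RARB for r and RDH16 with RARB for rho. Before diet means were removed, these were also the only pairs with an unadjusted permutation p under 0.05. In the pairs without RDH16 r lay between -0.389 (RDH11 with LRAT) and 0.394 (CYP26A1 with RBP4). For CYP26A1 and RBP4, the members with the lowest exact permutation p-values between IM10 and CON, r was 0.394 (permutation p = 0.103, adjusted p = 0.335) and rho 0.403 (permutation p = 0.0977, adjusted p = 0.408). It was 0.283 without the 2 pigs farthest from the median of CYP26A1 and 0.118 with diet means removed.

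Each member was also set against all 12306 other named genes by Pearson's r over the 18 arrays, as a description without a test. The gene most like LRAT was HGF, hepatocyte growth factor, which stellate cells express and which is on the list of their markers (r = 0.794, and 0.834 with diet means removed). APOC2 and ZNF609 followed at 0.787 and 0.784. HGF ranged from 7.05 to 7.96 in group CON, from 7.23 to 7.96 in group IM5 and from 7.55 to 7.77 in group IM10. CON replicates 5 and 6 were lowest in both genes and IM5 replicate 2 was highest or joint highest in both. HGF alone does not stand for the stellate cell list. ACTA2, also on it, ran the other way at both ends of group IM5. Its highest IM5 value, 8.12, was in replicate 6, the lowest in LRAT. Its lowest, 6.22, was in replicate 2, the highest in LRAT. The r of LRAT with the other listed markers is not given here. RBP4 was most like the chemokine gene CCL14 (r = 0.878, and 0.831 with diet means removed), and RDH11 most like SDF2L1 of the endoplasmic reticulum (r = 0.859). CYP26A1 was most like GALT, RHOQ and PRPF4B, with r between 0.771 and 0.777, of which 0.599 to 0.714 was left with diet means removed. RARB was most like LOC100517469 (r = 0.860) and the water channel AQP8 (r = 0.848). LOC100517469, at 1.89 to 2.78 on all arrays, was as dim as PNLIP and was not shown to lie above background. AQP8, at 4.19 to 4.67, lay below the array medians. RDH16 was most like the proton pump subunit ATP6V1G3, with r = 0.596 over the 8 pigs of its upper level and 0.820 over the 10 pigs of its lower level. ATP6V1G3, at 4.49 to 5.39, lay around the array medians. All these genes share the same arrays and were picked as the highest of many correlations.

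**Figure D5:**
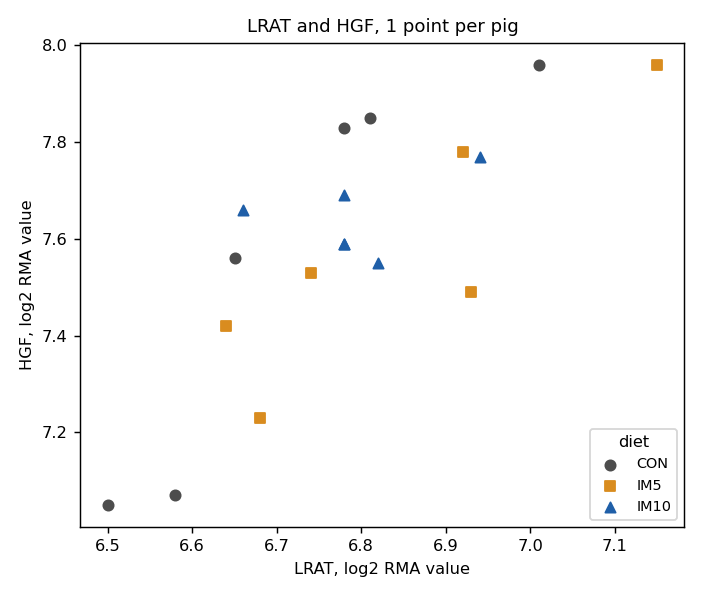
Each point is 1 pig, with the log2 RMA value of LRAT (x axis) against that of HGF (y axis), by diet; 2 IM10 pigs share the point at 6.78 and 7.59. Pigs low in LRAT are low in HGF in groups CON and IM5, while the IM10 pigs lie between 7.55 and 7.77 in HGF.

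The members differed in how far pigs of the same diet lay apart. The pooled SD within diets was 0.328 for RDH16, larger than in 95.5% of all probe sets, 0.232 for CYP26A1 (larger than in 84.3%) and 0.200 for RARB (larger than in 74.2%). LRAT and RDH11 lay near the middle, at 0.162 and 0.147.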

How the data were processed

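Liver RNA of 18 pigs was hybridised to Affymetrix Porcine Gene 1.0 ST arrays. The authors corrected the background and normalised the arrays with RMA in Affymetrix Expression Console, and the deposited values are on a log2 scale with 2 decimals. No version was given in the sources used here, and the log base follows from the RMA method. The arrays carry no counts, so the number of pigs limits the precision.

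Probe sets were named from the platform annotation. Of 25388 probe sets, 13257 had 1 gene symbol, 427 listed several genes and were left unnamed, and 11704 were not listed and remain unnamed here. Of the gene numbers, 12804 were found in the gene table of assembly Sscrofa11.1, which was used only for names and gene order. The probe set with the highest mean stood for a gene. The members and lists were chosen with earlier results of these data known. Named beside the members were list genes that met the criteria, those with the smallest p of each list, and the 3 genes most like each member.

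All probe sets were fitted with limma 3.58.1 in R 4.3.3, separately for each pair of diets, with Benjamini-Hochberg adjustment over all probe sets. A slope on the percent of insect meal was fitted over 18 arrays. Single probe sets were also tested with two-sided exact permutation tests that enumerated all arrangements in Python 3.11.15. Correlations used permutation tests of 100000 resamples, with ranks and adjustment from scipy 1.17.1. The limma steps were tested on simulated data. Alternatives were the equal-variance t-test named in the methods, 1 fit over all arrays, renewed quantile normalisation, an intensity trend with a robust prior, leaving out probe sets dimmer than the median, the replicate number as a block, an adjusted p as the call rule, and leaving out each array.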

Additional observations from a re-analysis of the deposited data

Results flagged for a closer look

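In 78 groups of 6 pigs, from 26 genes or probe sets, the distance of the highest and the lowest pig from its neighbour was compared with Dixon's critical value of 0.625 of the range. Far pigs were found in 5 groups, and chance gives about 1 in 20. Probe set 15288429 had its lowest IM5 value in replicate 2, at 5.58, with the next at 9.32. ACTA2, the smooth muscle actin of activated stellate cells, had its highest IM5 value in replicate 6, at 8.12, with the next at 6.66. CDX1 was highest in IM10 replicate 1, at 4.59, with the next at 4.28. CMKLR1 was highest in IM5 replicate 2, at 7.31, with the next at 7.00. RDH10 was lowest in CON replicate 4, at 7.66, with the next at 7.86. No member had a far pig in any diet.

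For CYP26A1, IM10 minus IM5 equals the difference between the effects of both insect meal diets against the shared controls. It was -0.345 on the log2 scale and met the criteria (two-sided exact permutation p = 0.0541, limma p = 0.0222, adjusted p = 0.881). At these exact and adjusted p-values a difference between the effects is not established. This comparison is the one that single pigs decided.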

How the results depend on the processing

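For the 6 members, 450 values were computed under the alternatives. Of these 446 kept their side of the criteria, 4 lost the call (all CYP26A1 in IM10 against IM5, each without 1 pig), 0 gained one and 0 called differences reversed, while 22 differences that met no criteria changed sign. With an adjusted p as the call rule, 0 members were called in IM10 against CON and 0 in IM10 against IM5. Leaving out each pig gave 0 to 1 members in IM10 against IM5. Among the other retinoid genes it gave 0 to 2 in IM10 against CON (FABP5, GPR1, MEIS1 or PNPLA2), 2 to 6 in IM5 against CON, 0 to 2 in IM10 against IM5 and 0 to 3 for the slope. The t-test gave 1 in IM10 against IM5. Leaving out dim probe sets, which removes CDX1 and PNLIP, gave 2 in IM5 against CON and 1 in IM10 against IM5. All probe sets meeting the criteria numbered 368, 320 and 276 by the t-test, against 526, 488 and 404 by limma, for IM10 against CON, IM5 against CON and IM10 against IM5.

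The replicate numbers were not taken to pair the pigs, since 4 of 18 same-numbered pairs had deviations correlated over 0.1, with a range from -0.144 to 0.201. All 6 pairs of IM10 and CON were above 0 (0.0197 to 0.201), and in 13 of 36 cases the best match in another diet had the same number, which is a hint from the data and not from the design. With the number as a replicate block, 2 other retinoid genes met the criteria in IM10 against CON (FABP5 and GPR1), and the calls of the members were the same, with CYP26A1 at a limma p of 0.00252 for IM10 against CON. Probe set 15288429 also met the criteria in IM5 against CON (two-sided exact permutation p = 0.104) with the block (limma p = 0.0240) and without CON replicate 1 (p = 0.0417), CON replicate 6 (p = 0.0408) or IM5 replicate 2 (p = 0.00799, log2 difference 2.34 in place of 1.64). Replacing the probe set of a gene by its next one or by a mean over its probe sets was not run, since each member has 1.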
